A study of Bos taurus with 6 samples.

Results

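bta-miR-221 and bta-miR-222 were examined in cultured bovine granulosa cells. They were taken by name, as 2 of the 1028 bovine miRNAs listed in every library, and no further arm of either hairpin was listed. Granulosa cells, the follicular cells that surround and nourish the oocyte, were aspirated from small antral follicles of 3 to 6 mm in Bos taurus ovaries from a slaughterhouse. They were cultured for 24 h at 37 °C and then either left at 37 °C (control) or moved to 42 °C (heat stress, HS) for a further 24 h. Each group had 3 libraries of miRNA-enriched total RNA, and neither the genotype nor the age of the donor animals, nor the number of animals behind a library, is given in the labels. The series' design text calls the replicates biological. As nothing ties them to separate animals, p-values measure the spread between these libraries, which may in part be technical.

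A miRNA is a short RNA that guides the silencing complex to messenger RNAs, mainly through its seed (bases 2 to 8). miR-221 and miR-222 are cut from a common primary transcript of the X chromosome and carry the same seed. Their best known targets are CDKN1B, an inhibitor of cyclin-dependent kinases that holds back cell division, and KIT, the receptor for KIT ligand. In the follicle granulosa cells make KIT ligand, and KIT itself is carried mainly by the oocyte and the theca. In RefSeq's gene table for ARS-UCD2.0, MIR221 and MIR222 lay next to each other on chromosome X with 0 annotated genes between them. Both lay within the interval of 1 long non-coding RNA gene, LOC132344329, and the nearest protein-coding genes on either side were ZNF674 and DIPK2B. The reads were mapped to another assembly, UMD3.1, so no positions are given.

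The libraries held between 2076239 and 4590971 reads, with control replicate 1 the shallowest. Values are deposited reads scaled to a common library size (CPM) with factors from the TMM method, which presumes that most miRNAs stay alike, and are given as normalised CPM. The cell label could not be checked against messenger RNA markers, since only miRNAs were measured. Taken list by list, miRNAs typical of other cells that an aspirate could hold summed to less than either member in every library. Over the whole list for each cell type, the summed level per library was 614 to 843 normalised CPM for 4 white cell miRNAs, 131 to 352 for 2 endothelial, 51.9 to 96.9 for 6 epithelial, 1324 to 2192 for 5 stromal and 12.5 to 62.7 for 3 red cell miRNAs.

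The first question was how much of each member the cells held. Both were abundant, and miR-221 was the major member. miR-221 was the 12th and miR-222 the 42nd most abundant of 755 miRNAs with a read, at means of 24282 and 3303 normalised CPM over the 6 libraries. The pair took 2.75% of all miRNA reads on average, and miR-221 made up 87.5 to 88.6% of the pair in every library.

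**Figure D1:**
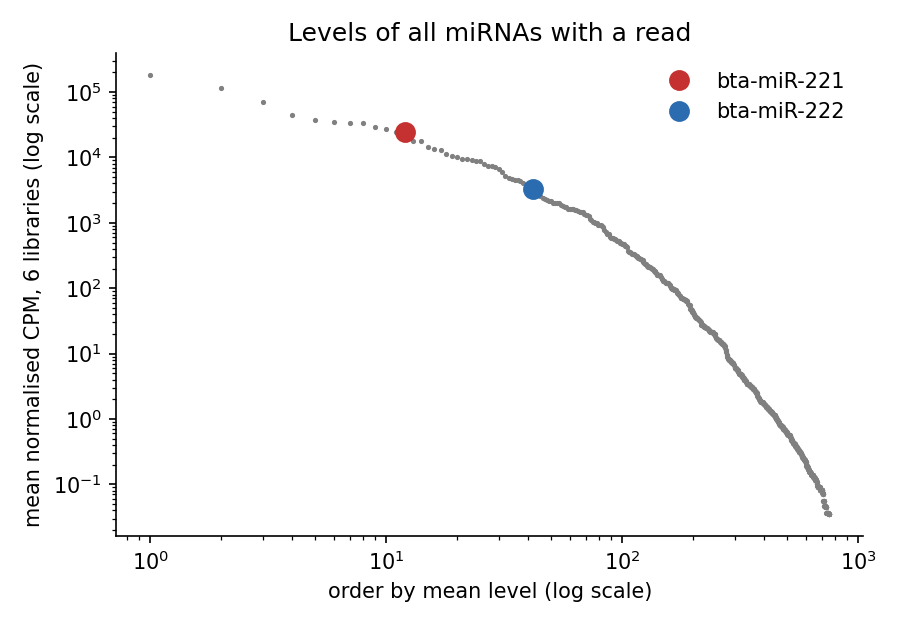
Mean normalised CPM over the 6 libraries (log scale) against the order of all miRNAs with a read (log scale), 1 point for each miRNA. bta-miR-221 lies at position 12 and bta-miR-222 at position 42, on the upper part of the curve.

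In control cells the level of miR-221 was 26421, 24035 and 19994 normalised CPM (replicates 1, 2 and 3), on 54117, 110634 and 71763 reads. In HS cells it measured 28263, 25801 and 21178 normalised CPM, on 85177, 94878 and 99500 reads. Within each group replicate 1 was the highest and replicate 3 the lowest library, and the groups overlapped. miR-222 measured 3502, 3083 and 2658 normalised CPM in control cells, on 7172, 14190 and 9540 reads. It measured 3879, 3667 and 3032 normalised CPM in HS cells, on 11690, 13483 and 14244 reads. The libraries stood in the same order as for miR-221 within each group, and the groups overlapped here too.

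The depth behind these values was ample. Counting error was 0.301 to 0.430% of the level for miR-221 and 0.838 to 1.18% for miR-222. The spread between replicates was larger, with coefficients of variation of 13.8% in control and 14.3% in HS cells for miR-221, and of 13.7% and 12.5% for miR-222. The pooled SD between replicates on the log2 scale was 0.21 for miR-221 and 0.19 for miR-222, against a median of 0.27 over the 365 miRNAs tested. Over all 6 libraries the highest level was 1.41 times the lowest for miR-221 and 1.46 times for miR-222.

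In the order of mean levels miR-221 lay between bta-miR-26a (24839 normalised CPM), a regulator of growth and differentiation, and bta-miR-92a (18170), of the growth-promoting miR-17-92 cluster. The ranges over libraries of miR-221 overlapped those of bta-miR-125b, bta-miR-26a and bta-miR-92a, and not that of bta-miR-29a (15087 to 19389), a miRNA known for its matrix gene targets. miR-222 lay between bta-miR-99a-5p (3424 normalised CPM) and bta-miR-708 (2871). Its range overlapped those of the 2 next miRNAs on each side, bta-miR-361, bta-miR-99a-5p, bta-miR-708 and bta-miR-22-3p, so its place in the order was not fixed within their spread. Levels of different miRNAs were compared as reads, and how well each is captured in a library was not measured.

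The second question was whether HS changed the members. Neither passed the test, and 0 of 2 were called at a limma adjusted p of at most 0.2. Unadjusted p-values under 0.05 also numbered 0, against 14.5% of all miRNAs tested, and the edgeR quasi-likelihood test and the DESeq2 Wald test on recovered reads each called 0 of 2. Over all 365 miRNAs tested, limma called 7.12%, or 3.01% when a 2-fold difference in either direction was also required.

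miR-221 averaged 23483 ± 3249 normalised CPM (SD, n = 3) at 37 °C and 25081 ± 3597 (SD, n = 3) at 42 °C. Its log2 fold change of HS over control was 0.09 ± 0.148 (SE; limma adjusted p = 0.853), with an interval of 95% from -0.26 to 0.44, and upper quartile scaling turned it to -0.09 while moving the median of all miRNAs tested to -0.18. Single libraries moved it as well, to -0.017 without control replicate 3 and 0.0029 without HS replicate 1. It was 0.18 without control replicate 1 and 0.21 without HS replicate 3, so the fit by group alone did not settle its direction. By same replicate number HS exceeded control by 0.097, 0.10 and 0.083 log2 units (replicates 1, 2 and 3), though whether the numbers pair the libraries is not known. miR-222 averaged 3081 ± 422 normalised CPM at 37 °C and 3526 ± 441 at 42 °C. Its log2 fold change was 0.20 ± 0.151 (SE; limma adjusted p = 0.646), with an interval of 95% from -0.16 to 0.55, and stood at 0.01 with upper quartile scaling. It was 0.094 without control replicate 3, 0.12 without HS replicate 1, 0.29 without control replicate 1 and 0.30 without HS replicate 3. In linear terms the intervals ran from 0.837-fold to 1.36-fold for miR-221 and from 0.894-fold to 1.47-fold for miR-222. A change of 2-fold (log2 fold change of 1) in either direction lay outside both intervals, and both intervals included no change. Over all miRNAs tested the median size of the log2 fold change was 0.20, so miR-222 lay near it and miR-221 below it. Neither member was among the 73 miRNAs (20%) whose groups did not overlap.

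**Figure D2:**
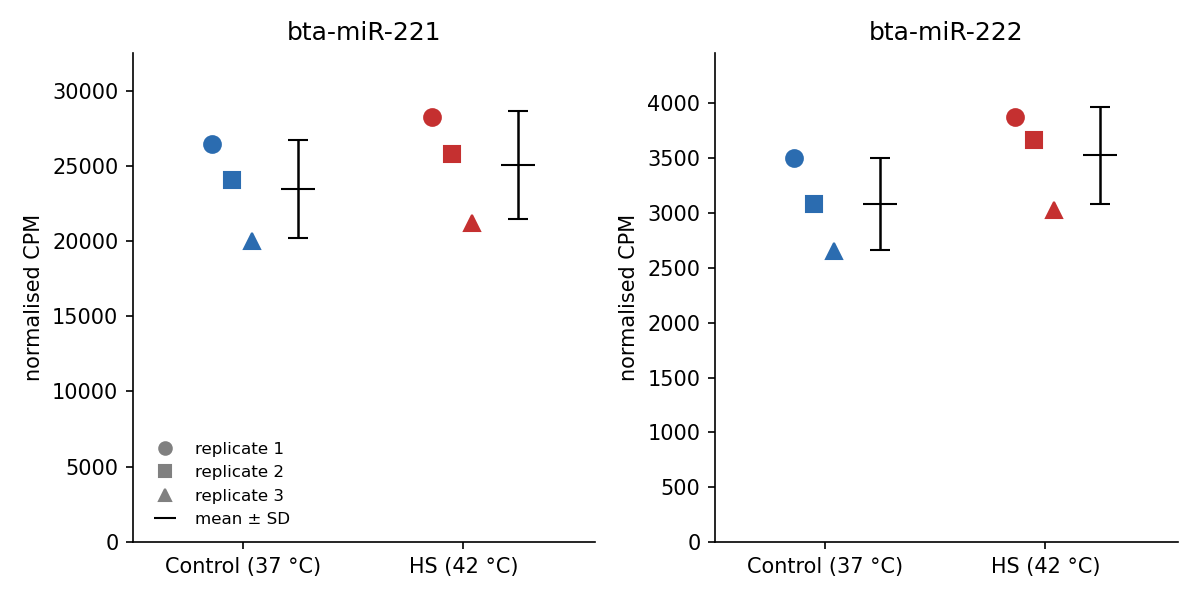
Normalised CPM of bta-miR-221 and bta-miR-222 (linear axes from 0) in each library, with the group mean and SD (n = 3 each). For both members the control and HS libraries overlap, and within each group replicate 3 is the lowest library.

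The pair together took 2.95%, 2.75% and 2.28% of reads at 37 °C and 3.1%, 2.97% and 2.48% at 42 °C (replicates 1, 2 and 3 of each). The exact binomial interval of 95% of each share was at most 0.0461 percentage points wide and covers counting error only. The mean share was 2.66% ± 0.346 (SD, n = 3) at 37 °C and 2.85% ± 0.329 (SD, n = 3) at 42 °C. By an exact permutation test of the means, two-sided, this gap of 0.192 percentage points did not exceed the replicate spread (p = 0.5, where 0.1 is the least that can be reached). The gap was 0.00126 points without control replicate 3, 0.0663 without HS replicate 1, 0.339 without control replicate 1 and 0.378 without HS replicate 3. It was 0.397 when the 5 most abundant miRNAs were left out of the denominator. By same replicate number the share was higher at 42 °C each time (exact sign-flip test, p = 0.25, the smallest that 3 pairs allow).

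The third question was whether the members kept a fixed ratio, which does not depend on how libraries are scaled. miR-221 exceeded miR-222 by 7.55, 7.80 and 7.52-fold in control replicates 1, 2 and 3. It exceeded miR-222 by 7.29, 7.04 and 6.99-fold in HS replicates 1, 2 and 3. All 3 HS libraries thus held relatively more miR-222 than all 3 control libraries, and the groups did not overlap. The log2 ratio of miR-222 to miR-221 averaged -2.93 ± 0.0286 (SD, n = 3) at 37 °C and -2.83 ± 0.0325 (SD, n = 3) at 42 °C. They differed by 0.10 log2 units, which equals the gap between the log2 fold changes of the members. The closest libraries of the groups, control replicate 3 and HS replicate 1, lay 0.046 log2 units apart, a gap of the same order as those SDs between replicates. The exact permutation test, two-sided, gave p = 0.1, the smallest that 3 against 3 libraries allow, so this design could not reach 0.05.

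**Figure D3:**
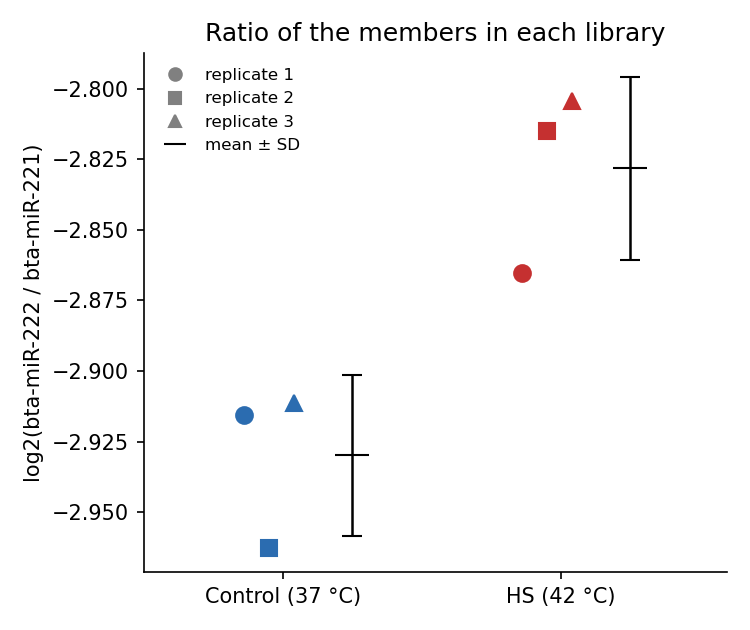
log2 of bta-miR-222 over bta-miR-221 in each library, with the group mean and SD (n = 3 each); the axis does not start at 0. The control libraries lie between -2.96 and -2.91 and the HS libraries between -2.87 and -2.80.

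To see how such a ratio behaves elsewhere, 15 other pairs of miRNAs from shared clusters were listed, and 14 had both partners among the miRNAs tested. Some of these mature miRNAs, such as miR-29b and the miR-181 members, also arise from a further locus. The ratio of miR-222 to miR-221 was among the steadiest. Its pooled SD between replicates was 0.0306 log2 units, while the 14 others ranged from 0.0301 to 0.854 with a median of 0.222. The single pair below it was bta-miR-183 over bta-miR-182, partners in a cluster that represses FOXO1, at 0.0301. Those partners themselves differed widely between libraries, as bta-miR-182 ran from 119.5 to 837 normalised CPM. Counting error adds to the SD where a partner has few reads, such as bta-miR-145 on 17 to 41 and bta-miR-212 on 61 to 181. The members rested on 7172 reads or more.

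Differences of this raw size were seen in other pairs too, most of which varied more between replicates. In 9 of the 14 other pairs the ratio differed between HS and control by more than 0.10 log2 units in size. The median size over the 14 was 0.117, beside a median pooled SD between replicates of 0.222. For the members a difference of 0.10 stood beside an SD of 0.0306, so raw sizes do not compare the pairs relative to their own spread. The groups did not overlap in 3 of the 14 (21.4%). These were bta-miR-212 over bta-miR-132, gonadotropin-induced miRNAs, with a difference of 0.11, bta-miR-20a over bta-miR-17-5p of the miR-17-92 cluster, with 0.29, and bta-miR-125a over bta-miR-99b, with 0.45. In a check chosen after the data were seen, the first of these fell to 0.029 without control replicate 1 and the last to 0.22 without control replicate 2, while bta-miR-20a over bta-miR-17-5p stayed between 0.21 and 0.36 with any 1 library left out. The number of pairs with a larger difference than the members was 6 to 10 of 14 in that check, with a median size of 0.0658 (without control replicate 1) to 0.188 (without control replicate 2). The groups did not overlap in 6, 5 and 5 of the 14 without control replicates 1, 2 and 3, and in 3, 4 and 3 without HS replicates 1, 2 and 3, where smaller groups overlap less readily. With 15 ratios compared, the exact permutation p of the miR-222 to miR-221 ratio was 0.375 after Benjamini-Hochberg adjustment.

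**Figure D4:**
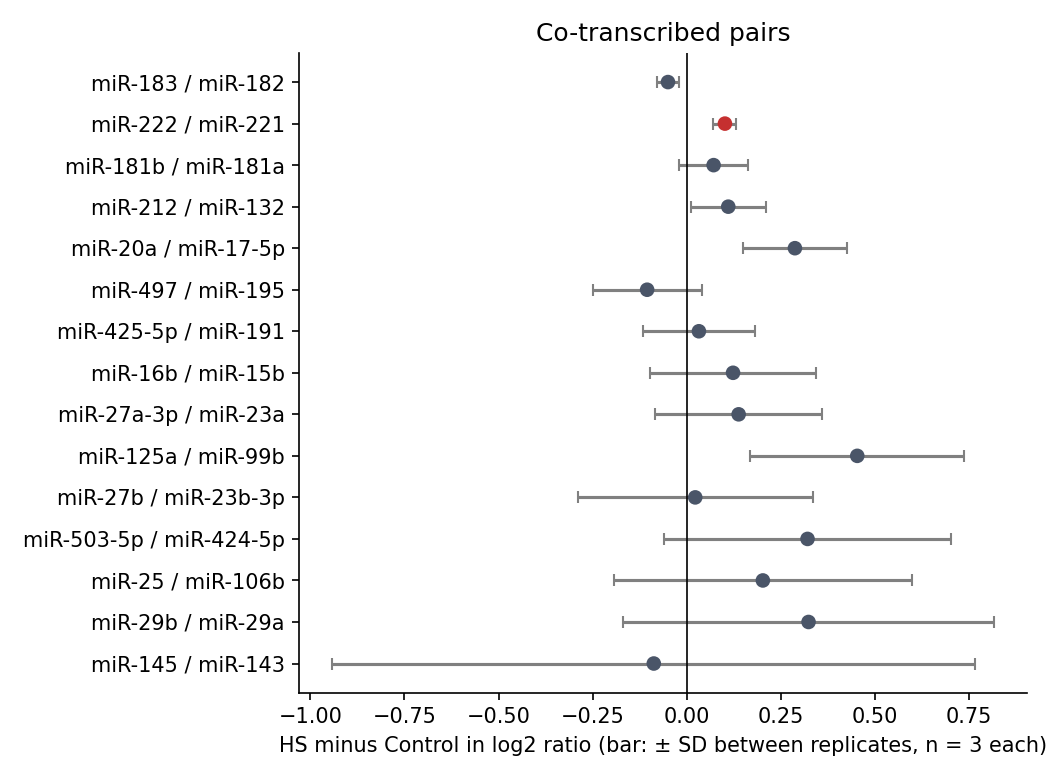
Difference between HS and control in the log2 ratio of each pair (points) with the pooled SD between replicates (bars, n = 3 each), ordered by that SD. The ratio of miR-222 to miR-221 (red) has a difference of 0.10 and the second smallest SD.

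The fourth question was which miRNAs varied like the members over the libraries. miR-221 and miR-222 followed each other closely. Over the 6 libraries Pearson's r of their log2 values was 0.952 (exact permutation p = 0.00556) and Spearman's rho 0.943 (exact permutation p = 0.0167). This was the single relation across libraries that was tested. The test took the 6 libraries as independent, although replicates 1, 2 and 3 stood in the same order in both groups. If same-numbered libraries are related, these p-values are too small. Without the 2 libraries farthest from the median of miR-221, replicate 3 of each group, r was 0.924. As deviations from the group means, which leaves out any difference between HS and control, r was 0.991.

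Among the 364 other miRNAs tested, miR-222 was the third most like miR-221, and miR-221 the third most like miR-222, by Pearson's r over the 6 libraries. As a description, without a test, the 5 most like miR-221 were bta-miR-486 (r = 0.985), bta-miR-122 (0.959), miR-222, bta-miR-362-5p (0.931) and bta-miR-1291 (0.925). The 5 most like miR-222 were bta-miR-486 (r = 0.976), bta-miR-500 (0.965), miR-221, bta-miR-100 (0.948) and bta-miR-12005 (0.907). With 6 points that share their libraries and scaling, 10 miRNAs exceeded an r of 0.9 with miR-221 and 6 did with miR-222, while 3 and 4 lay below -0.9.

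bta-miR-486, a miRNA typical of red blood cells, was scarce and far more variable than the members. Control replicates 1, 2 and 3 held 50.8, 29.1 and 12.0 normalised CPM, and HS replicates 1, 2 and 3 held 60.1, 49.2 and 20.0. The summed level of the 3 red cell miRNAs, 52.7, 30.0 and 12.5 at 37 °C and 62.7, 50.6 and 20.9 at 42 °C, was 95.6 to 97.3% bta-miR-486, so it restates that miRNA. bta-miR-451, the defining red cell miRNA, stayed at 0.557 to 2.65 normalised CPM, on 2 to 8 reads, and bta-miR-144 was at 0 in 3 of 6 libraries. The study's methods include a red cell lysis step before culture. The part of red cells in the levels of the members was not tested. The sums of the other cell type lists correlated with miR-221 at -0.57 (endothelium), -0.31 (white cells), -0.20 (stroma and smooth muscle) and 0.31 (epithelium). bta-miR-122, known from liver, measured 71.8, 54.3 and 17.3 normalised CPM at 37 °C and 72.0, 49.5 and 20.4 at 42 °C.

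**Figure D5:**
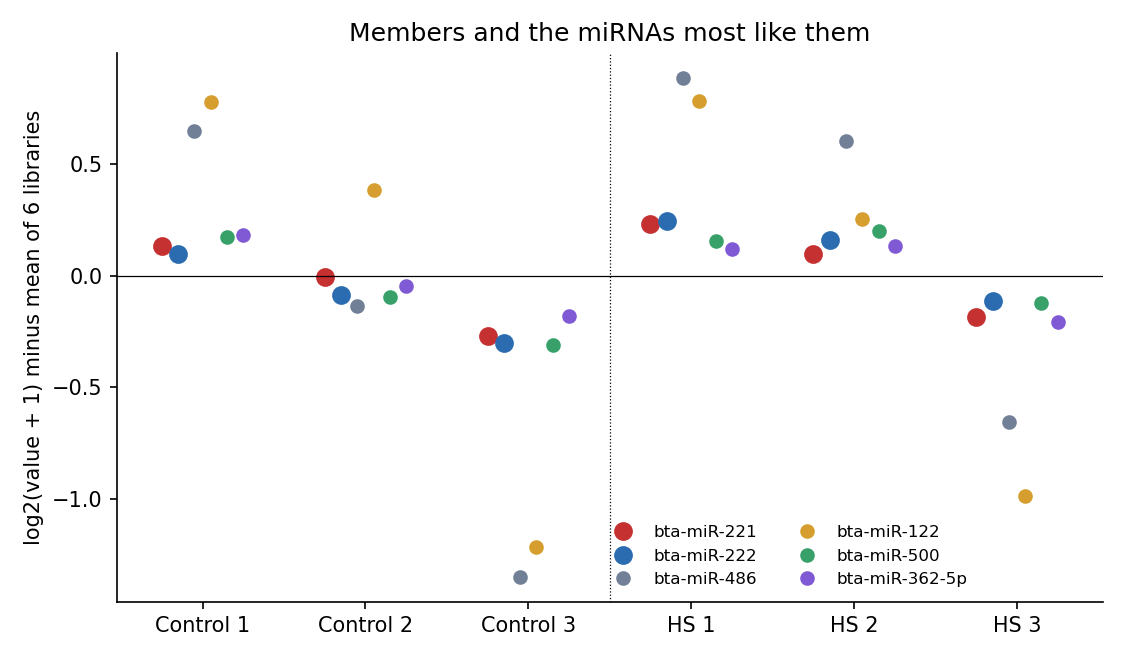
log2(value + 1) of the members and of 4 miRNAs most like them in each library, each centred on its mean over the 6 libraries. Within each group all lie lowest in replicate 3, and bta-miR-486 and bta-miR-122 spread several times wider than bta-miR-221 and bta-miR-222.

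Finally, other miRNAs known to act on the same targets were examined. Of 7 listed for CDKN1B, 5 passed the filter on low reads and 0 were called by limma at an adjusted p of at most 0.2 (0 at an unadjusted p under 0.05, 0 by edgeR and 0 by DESeq2). With 7.12% of all miRNAs tested called and 14.5% at that unadjusted p, a count of 0 among 5 is near the background. Their median log2 fold change was -0.0003, against -0.0015 over all miRNAs tested. The most abundant was bta-miR-24-3p, at 8783 ± 855 normalised CPM (SD, n = 3) at 37 °C and 8796 ± 1026 at 42 °C, below miR-221 and above miR-222. bta-miR-148a, which represses DNMT1 as well, measured 1916 ± 539 and 1804 ± 289, and its relative bta-miR-152 measured 919 ± 152 and 958 ± 66.3. bta-miR-181a measured 949 ± 65.4 and 829 ± 117 (limma adjusted p = 0.619), and bta-miR-196a, a miRNA encoded within the HOX clusters, 63.3 ± 9.82 and 64.4 ± 1.48. bta-miR-24 and bta-miR-196b, with at most 2 reads in any library, did not pass the filter.

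Of 3 miRNAs listed for KIT, 2 passed the filter and 0 were called by limma (0 by edgeR and 0 by DESeq2), where limma called 7.12% of all miRNAs tested. An unadjusted p under 0.05 was seen for 1 of them, as for 14.5% of all miRNAs tested. The groups did not overlap for either, where 20% of all miRNAs tested did not overlap. bta-miR-34a, a p53-induced miRNA that restrains the cell cycle, held 1137, 1570 and 1267 normalised CPM at 37 °C and 1585, 1699 and 2256 at 42 °C (replicates 1, 2 and 3 of each). The log2 difference, 0.48, was not called (limma adjusted p = 0.306) and stood at 0.29 with upper quartile scaling. bta-miR-193b held 40.5, 36.5 and 37.3 at 37 °C and 43.5, 47.9 and 49.8 at 42 °C, a log2 difference of 0.30 (limma adjusted p = 0.453) that stood at 0.11 with upper quartile scaling. bta-miR-494 had at most 8 reads in any library and was not tested.

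The pair outweighed these lists in every library. Both members summed to 29923, 27118 and 22652 normalised CPM at 37 °C (replicates 1, 2 and 3), or 2.34, 1.93 and 1.49 times the sum of all 10 listed miRNAs. In HS replicates 1, 2 and 3 it came to 32142, 29468 and 24210, or 2.49, 2.05 and 1.54 times that sum. The groups overlapped in this quantity.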

How the data were processed

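Small RNA libraries with unique molecular identifiers were sequenced from 3 control and 3 HS cultures. Per the labels and the study's methods, the authors trimmed reads with Cutadapt 1.11, collapsed them by identifier, mapped them with Bowtie2 2.2.2 to the UMD3.1 genome and to miRBase entries, and applied TMM normalisation in edgeR. How reads that fit several miRNAs were treated is not given in the sources used here. The deposited signal was TMM-normalised CPM. In each library 100% of the values were whole multiples of 1 step (tolerance 0.01 of a read), which gave whole reads. Within a group, libraries differed beyond sampling noise (chi-square of 84.3 to 431 per degree of freedom).

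limma 3.58.1 with a mean-variance trend (R 4.3.3) was fitted to log2(value + 1) of the 365 miRNAs that passed filterByExpr of edgeR 4.0.16 on the recovered reads, with Benjamini-Hochberg adjustment over all of them. Fold changes on this scale understate changes of low miRNAs. Called means an adjusted p of at most 0.2, the limit of the study. The ratio and the share were compared by exact permutation (scipy 1.17.1). The fit was tested on simulated data. Alternatives were other pseudocounts (0.5 and 5), filters, scalings, tests (edgeR, DESeq2 1.42.0), the replicate block and leaving out every library in turn, and the edgeR fit with the block and the other pairs with 1 library fewer were added after the data were seen. On the recovered reads edgeR's quasi-likelihood test called 25 miRNAs, against 26 by limma. Named miRNAs were the members, the lists for CDKN1B, KIT, other cells and other pairs, the 5 most like each member and its 2 neighbours in level on each side. bta-miR-193a-3p and bta-miR-365-3p were left out as a pair because at least 1 partner did not pass the filter. The members and lists were chosen with earlier results of these data known. A floor of 3 reads corresponds to 0.639 to 1.46 normalised CPM. Mature sequences were not used here.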

Additional observations from a re-analysis of the deposited data

How the results depend on the processing

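Neither member was called under any of 17 alternatives, with adjusted p-values of 0.534 to 0.992 for miR-221 and 0.373 to 0.988 for miR-222. Over fits with all libraries the log2 fold change ran from -0.092 (upper quartile factors, which moved the median of all miRNAs to -0.18) to 0.12 for miR-221 and from 0.0099 to 0.22 for miR-222. When 1 library was left out it ran from -0.017 to 0.21 and from 0.094 to 0.30, and the negative value arose without control replicate 3. Counting error was small beside the spread between libraries. The difference in the log2 ratio was 0.10 with a pseudocount of 1 and 0.085 to 0.12 with 1 library fewer. The difference in the share was 0.397 points without the 5 most abundant miRNAs in the denominator, and ran from 0.00126 (without control replicate 3) to 0.378 (without HS replicate 3). The correlation of the members stayed within 0.909 to 0.972 with 1 library fewer.

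The replicate block lowered the SE in limma from 0.148 to 0.067 for miR-221 and from 0.151 to 0.0923 for miR-222. With the block the adjusted p in limma was 0.567 for miR-221 and 0.386 for miR-222, and in edgeR 0.733 and 0.439, so no call changed. Deviations from the group means correlated over miRNAs at 0.421, -0.117 and 0.616 between same-numbered libraries (replicates 1, 2 and 3). These values do not settle whether the numbers pair the libraries, and the sample titles give only the number. The main fit took the libraries as unpaired. By same number HS exceeded control by 0.097, 0.10 and 0.083 log2 units for miR-221, by 0.15, 0.25 and 0.19 for miR-222 and by 0.05, 0.15 and 0.11 for the ratio (exact sign-flip test of the ratio, p = 0.25, the smallest that 3 pairs allow).

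Over all miRNAs 26 were called, against 14 with no filter on low values (755 tested), 34 with upper quartile factors, 31 in edgeR with the replicate block (added after the data were seen), and 8 to 29 with 1 library fewer. Of the 26, 11 were higher and 15 lower in HS; of the 34, 7 and 27. With the fold limit the number stayed between 8 and 16, against 11. Among the listed miRNAs some small differences changed sign. bta-miR-24-3p stood at 0.022 with DESeq2 size factors and 0.017 in the DESeq2 test, and with 1 library fewer spanned -0.061 to 0.10. With upper quartile factors bta-miR-152 was at -0.11 and bta-miR-196a at -0.15, and bta-miR-196a was at -0.0014 in edgeR. With 1 library fewer bta-miR-152 ran from -0.070 to 0.17, bta-miR-196a from -0.094 to 0.12 and bta-miR-148a from -0.32 to 0.089. The cause was not tested.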
